A study of Homo sapiens with 4 samples.

Results

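The regions described here are stretches of open chromatin that were called in OPM-2 cells after each of 3 drug treatments and not after the vehicle. OPM-2 is an established human multiple myeloma line, a tumour of antibody-secreting plasma cells, and the study concerns myeloma with the t(4;14) translocation. One ATAC-seq library was made from cells kept for 72 h in the vehicle DMSO, another in 1 µM all-trans retinoic acid (ATRA), another in 1 µM pomalidomide (POM) and the last in 1 µM of each agent together (ATRA+POM). All groups share the same line and time, and with 1 library per group there is no replicate check, so every value below is a description of these 4 libraries without a test. Overlapping peaks of the 4 deposited lists were merged on chromosomes 1 to 22 and X, and a member was a merged region with a peak from ATRA, from POM and from ATRA+POM and none from DMSO. The members were thus chosen by their peak calls, and numbered 1887 of 122632 merged regions (1.54%). They make up 4.21% of the 44817 regions present in every treated list, a share that the rule itself sets. The number of members was 603 with treated peaks of a −log10 q-value of 5 or more, 645 with treated peaks at least 300 bp wide and 4492 without the POM list.

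In ATAC-seq the Tn5 transposase cuts and tags DNA that nucleosomes leave accessible, so reads pile up over promoters, enhancers and other sites bound by regulatory proteins. ATRA is the ligand of the retinoic acid receptors, nuclear receptors that sit on DNA as heterodimers with retinoid X receptors and switch from repression to activation when the ligand binds. Pomalidomide binds cereblon, the substrate receptor of a ubiquitin ligase, and directs it to degrade the zinc-finger factors IKZF1 (Ikaros) and IKZF3 (Aiolos), on which myeloma cells depend. Because the libraries came from bulk cells, a site open in more cells cannot be told apart from a site more open in each cell.

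Of the 1887 members, 46 overlapped a promoter window, taken as the 250 bases before to 50 bases after a RefSeq start site (GRCh38.p14, the hg38 assembly). These lay on 50 of 34961 such windows (0.143%). The share of all merged regions that overlap such a window is not given here, so the 46 members are a description without a comparison. For 12 members the ATRA+POM summit, the base of highest coverage, fell inside the window of a protein-coding gene (13 genes). Sequences were read at promoters only. The 250 bases upstream of the start site are shown for 5 of them, 5′ to 3′ on the strand of the gene. They are CXCL8, which encodes the neutrophil-attracting chemokine interleukin 8 (chr4:73740319-73740568, plus strand), RCAN1, a calcineurin inhibitor (chr21:34526823-34527072, minus strand), SLITRK6, a neuronal transmembrane protein (chr13:85799420-85799669, minus strand), FRMPD4, a postsynaptic scaffold protein (chrX:12065291-12065540, plus strand), and CAMP, the antimicrobial peptide cathelicidin (chr3:48223245-48223494, plus strand). Capitals mark matches to TGANTCA, the site of AP-1 (FOS and JUN family) factors, to GGNNTTTCC, an NF-kB site, or to the E-box CAGCTG, each searched on both strands. The first 4 were chosen for display because they are the 4 of these 13 genes with an AP-1 match, and CAMP because it has no match to any motif marked here.
CXCL8: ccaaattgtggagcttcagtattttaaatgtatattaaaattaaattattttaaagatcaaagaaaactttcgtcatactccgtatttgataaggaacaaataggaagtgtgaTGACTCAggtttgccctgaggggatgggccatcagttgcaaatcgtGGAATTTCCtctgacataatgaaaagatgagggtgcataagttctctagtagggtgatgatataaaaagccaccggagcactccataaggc
RCAN1: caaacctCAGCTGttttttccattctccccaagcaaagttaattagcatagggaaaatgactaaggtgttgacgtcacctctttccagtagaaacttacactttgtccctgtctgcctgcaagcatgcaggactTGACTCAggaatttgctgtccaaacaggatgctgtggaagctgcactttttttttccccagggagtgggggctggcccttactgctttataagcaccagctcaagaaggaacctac
SLITRK6: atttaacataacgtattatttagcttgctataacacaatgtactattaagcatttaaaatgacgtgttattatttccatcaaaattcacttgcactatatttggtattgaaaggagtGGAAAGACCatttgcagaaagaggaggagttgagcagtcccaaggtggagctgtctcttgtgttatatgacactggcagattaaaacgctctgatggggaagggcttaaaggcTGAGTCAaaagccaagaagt
FRMPD4: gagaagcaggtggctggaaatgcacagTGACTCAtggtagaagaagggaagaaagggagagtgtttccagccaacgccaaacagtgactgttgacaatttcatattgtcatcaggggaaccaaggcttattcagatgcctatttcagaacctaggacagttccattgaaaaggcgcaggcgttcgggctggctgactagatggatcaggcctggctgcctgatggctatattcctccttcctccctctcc
CAMP: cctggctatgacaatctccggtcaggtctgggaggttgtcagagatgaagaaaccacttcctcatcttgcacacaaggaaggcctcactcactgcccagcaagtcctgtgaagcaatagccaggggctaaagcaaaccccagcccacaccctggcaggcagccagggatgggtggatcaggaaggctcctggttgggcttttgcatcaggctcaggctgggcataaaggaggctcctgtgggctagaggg

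The CXCL8 promoter had no DMSO peak, and the nearest one lay 10.3 kb away. At the member (chromosome 4, 73740249 to 73741056) the summit pileup, the number of fragments over the highest base, was 15 in ATRA, 29 in POM and 57 in ATRA+POM. Libraries differed in depth, so pileups were also put at the DMSO scale, using the median ratio to DMSO over the 42930 regions called in all 4 lists. On that scale CXCL8 had 17.2 in ATRA (95% Poisson interval 9.62 to 28.3), 73.3 in POM (49.1 to 105) and 80.6 in ATRA+POM (61 to 104). The ATRA value was the low one, and both libraries with POM lay above its interval, which covers counting error only. The fold over local background that the authors deposited was 4.77, 14.3 and 14.9 in the same order. The 3 summits fell within 20 bp of each other, and the ATRA+POM summit lay 40 bp after the start site. In the sequence above, the AP-1 match starts 137 bases and the NF-kB match 91 bases before the start site. Of the other genes of this chemokine cluster, CXCL3 had 1 peak within 1 kb in every list, CXCL1 had 1 in POM only, and CXCL2, CXCL5, CXCL6, PF4, PF4V1 and PPBP had 0 in all 4.

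**Figure D1:**
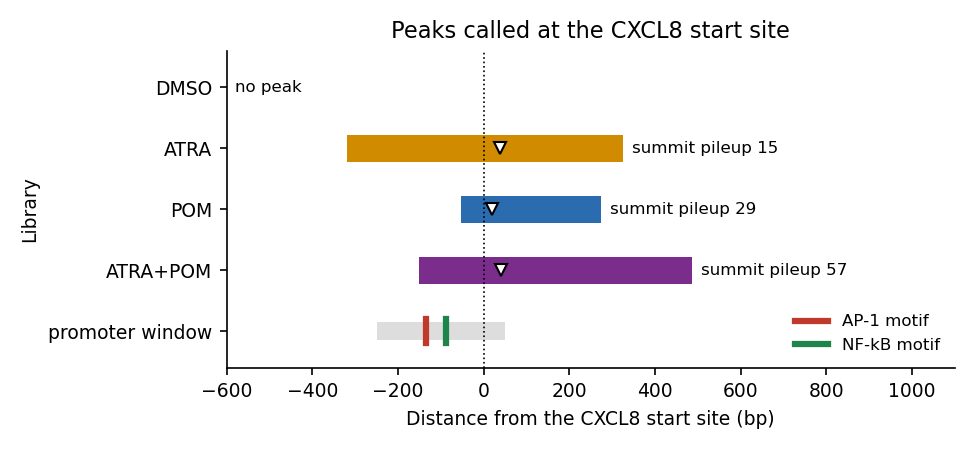
Peaks called in each library around the CXCL8 start site, drawn to scale in bp from the start site along the gene, with triangles at the summits and the recovered summit pileup beside each bar. The DMSO row holds no peak, the treated rows have pileups of 15, 29 and 57, and the grey bar is the 300-base promoter window with its AP-1 match (137 bases upstream) and NF-kB match (91 bases upstream).

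RCAN1 showed the same order of libraries, with pileups of 11 in ATRA, 14 in POM and 27 in ATRA+POM. At the DMSO scale these were 12.6 (6.29 to 22.5), 35.4 (19.3 to 59.3) and 38.2 (25.2 to 55.6), and the ATRA and POM intervals overlapped. SLITRK6 had 11, 7 and 26 reads, so that only ATRA+POM stood high, and its AP-1 match starts 20 bases before the start site. FRMPD4 had 23 in ATRA, 13 in POM and 16 in ATRA+POM, or 26.3, 32.8 and 22.6 at the DMSO scale, so ATRA+POM was the lowest library there. CAMP, whose peptide is made by neutrophils and epithelia, had 13, 7 and 18, or 14.9, 17.7 and 25.5 at the DMSO scale. PPP1R3A, the muscle glycogen-targeting subunit of protein phosphatase 1, had 15, 20 and 25, or 17.2, 50.5 and 35.4 at the DMSO scale. The remaining promoters were those of PCDHB13, a protocadherin, IRS4, an insulin receptor substrate, RHBDL2, a rhomboid protease, RASSF9, and the gene pair CAPN14 and EHD3, which share 1 member between their start sites. A further one, LOC101059915, is less certain if near-identical copies share reads there, which was not tested. Over the 13 genes, pileups ran from 9 to 40 in ATRA, from 6 to 29 in POM and from 14 to 59 in ATRA+POM. At the DMSO scale, ATRA was the lowest library at each of these promoters except FRMPD4. The margin was small at some, as at RHBDL2 (17.2, 17.7 and 19.8) and IRS4 (14.9, 15.2 and 19.8). The order of POM and ATRA+POM varied between promoters.

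Motifs were counted over all 50 windows, some of which overlap and so share sequence. AP-1 matches were in 8 windows (16%, 95% Wilson interval 8.34 to 28.5%) and in 7.68% of all 34961 windows. The Ikaros-type letters TGGGAA were in 11 windows (22%), against 24% of all, and the nuclear receptor site AGGTCA was in 6 (12%), against 13.8%. Direct repeats of AGGTCA spaced by 1, 2 or 5 bases, the arrangements that retinoid receptor heterodimers bind, were in 0 of 50 windows, which allows up to 7.13% by the Wilson interval. They were in at most 0.0229% of all windows, a share too small for 50 windows to show. The ETS letters CCGGAA, common at housekeeping promoters, were in 2 windows (4.00%, 1.10 to 13.5%), against 17.3% of all. RUNX letters (TGTGGT) were in 10 windows (20%, 11.2 to 33.0%), against 13.1%, and the E-boxes CAGCTG and CACGTG in 12 (24%, 14.3 to 37.4%) and 7 (14.0%, 6.95 to 26.2%), against 18.0% and 7.27%. The NF-kB letters were in 3 windows (6%), against 6.27%. Of 18 motifs counted, ETS (lower) and AP-1 (higher) were those whose interval left out the share in all windows. The others counted were IRF, ETS-IRF, GATA, octamer, forkhead, CCAAT and CTCF motifs. A match describes these letters and is not a bound site, and sequences at the other members were not used here.

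As a check of the cell type, all 9 plasma cell and myeloma markers, among them SDC1, IRF4, PRDM1, XBP1 and TNFRSF17, had a peak within 1 kb of the gene in every list. Markers of other lineages had peaks for 2 to 3 of 5 T cell genes, 1 to 2 of 5 myeloid, 0 to 1 of 4 erythroid and 1 to 2 of 5 epithelial genes. The DMSO list held 76402 peaks, that of ATRA 76636, that of POM 69162 and that of ATRA+POM 85434. The depth recovered from the lists was 94.1%, 33.6% and 62.7% of DMSO for ATRA, POM and ATRA+POM, so POM pileups were the least precise. The smallest pileup called was 8 in DMSO and 8, 4 and 7 in the treated libraries.

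Members were mostly low peaks in the ATRA list and came closer to the middle of the ATRA+POM list. The pileup ran from 8 to 98 in ATRA with a median of 14, from 4 to 117 in POM with a median of 9, and from 7 to 208 in ATRA+POM with a median of 19. At the DMSO scale the medians were 16, 22.7 and 26.9, where the median of all DMSO peaks was 30. Ranked by −log10 q-value within its own list, the median member stood at percentile 22.1 in ATRA, 32.3 in POM and 44.7 in ATRA+POM. Each member's lowest scaled pileup over the 3 treated libraries is called its lowest projection, and it was 14.9 at the median. It lay at or above the DMSO median of 30 for 76 members (4.03%, 3.23 to 5.01%) and under 12 for 319 (16.9%, 15.3 to 18.7%). The highest of the 3 projections reached 30 for 954 members (50.6%, 48.3 to 52.8%). The share of 4.03% was 21.0% with absence defined as no DMSO summit within 250 bp, and 10.1% with treated peaks of a −log10 q-value of 5 or more. No member had a lowest projection under 8, the smallest pileup called in DMSO. The calling limits fix this, as the smallest pileups called in ATRA, POM and ATRA+POM are 9.16, 10.1 and 9.90 at the DMSO scale. A peak is called strong here when its −log10 q-value is among the 20000 highest of its list. Of the 1887 members, 1743 were strong in no treated list, 100 in 1 list and 43 in 2 lists. A single member was strong in all 3, where 29.4% of the 44817 regions in every treated list were. At the calling limit, the 5 lowest members had −log10 q-values of 1.32 in ATRA, 1.32 to 1.46 in POM and 1.51 to 1.92 in ATRA+POM. Just outside the rule, the 5 regions of all lists with the weakest DMSO peak had 1.31 in DMSO, with a pileup of 8.

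**Figure D2:**
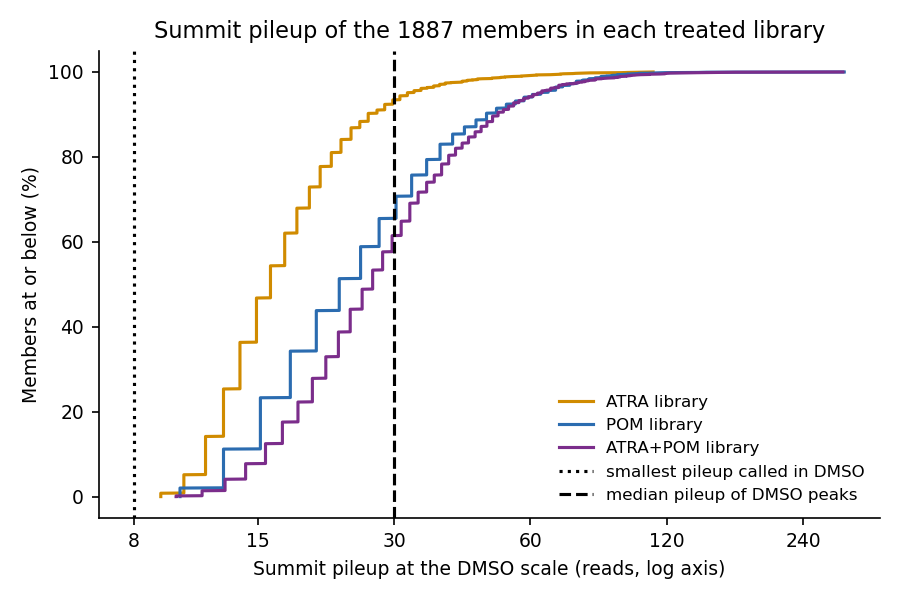
Cumulative share (%) of the 1887 members against their summit pileup in reads at the DMSO scale (log axis), with 1 curve per treated library. The dotted line is the smallest pileup called in DMSO (8) and the dashed line the median of DMSO peaks (30), and the ATRA curve lies left of the others (median 16 against 22.7 and 26.9).

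The share of regions that a list lacked fell with the height of the region in the remaining lists, for each of the 4 lists. Of regions with a lowest projection from 8 to under 12 reads, DMSO lacked 319 of 916 (34.8%), and of those from 24 to under 40 it lacked 167 of 10740 (1.55%). From 40 to under 80 reads it lacked 31 of 11034 (0.281%), and at 80 or more 0 of 10870, which allows up to 0.0353%. Taken over all heights, DMSO lacked 4.21% (4.03 to 4.40%) of the regions of the other lists. ATRA lacked 6.05% (5.83 to 6.27%), ATRA+POM 4.41% (4.23 to 4.61%) and POM, the shallowest library, 16.6% (16.3 to 16.9%). The rule fixed the DMSO share, so it is given as a description, and what part depth played in these shares was not tested.

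**Figure D3:**
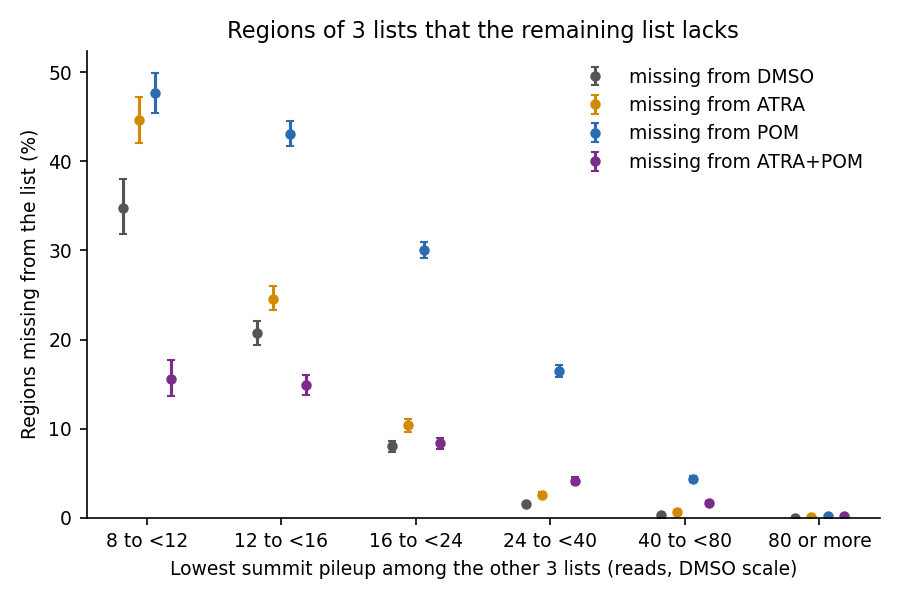
Share (%) of regions present in 3 lists that the remaining list lacks, by the lowest summit pileup in those 3 lists (reads, DMSO scale), with 95% Wilson intervals as bars. The members are the points for DMSO, which go from 34.8% in the lowest class to 0.281% at 40 to under 80 reads and 0 above.

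Among the treated libraries, which the rule used only as called or not called, ATRA had the lowest scaled pileup in 1372 members (72.7%, 70.7 to 74.7%). ATRA+POM had the highest in 1042 members (55.2%, 53.0 to 57.5%), POM in 678 (35.9%) and ATRA in 167 (8.85%). ATRA+POM exceeded ATRA in 1606 members (85.1%, 83.4 to 86.6%), against 49.9% of regions in all 4 lists, a share that the scaling itself sets, with a median ratio of 1.56. POM exceeded ATRA in 1486 members (78.7%, 76.8 to 80.5%), against 50%, with a median ratio of 1.42. ATRA+POM and POM were closer, with ATRA+POM higher in 1141 members (60.5%, 58.2 to 62.6%) and a median ratio of 1.12. With recovered depth in place of the scale from shared regions, the first 2 ratios were 1.90 and 1.80, ATRA was lowest in 1646 members and ATRA+POM exceeded POM in 1043. Members were much lower than the regions in all 4 lists, with a median ATRA pileup of 14 against 47. The libraries were not compared at matched height, and what part the calling limits played in this order was not tested. Across the members, log2 pileups of POM and ATRA+POM had a Pearson r of 0.670, those of ATRA and POM 0.382 and those of ATRA and ATRA+POM 0.283. The corresponding r over regions in all lists was 0.913, 0.785 and 0.783, and the points of each pair share their libraries and their calling limits.

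A region inside TRPM3, a calcium-permeable channel (chromosome 9, 71249494 to 71250023), had 40, 28 and 38 reads. One inside GALNTL6, a GalNAc-transferase family gene (chromosome 4, 171846150 to 171846682), had 34, 28 and 54, with the 3 summits at the same base. These ranked among the highest of all members in their weakest list. POM was the highest library at the DMSO scale at TRPM3 (70.7), and ATRA+POM at GALNTL6 (76.4).

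Of the 20 members that ranked highest in their weakest list, 18 are described here. Of these, 10 lay inside a gene body, 6 within 100 kb of one and 2 farther from any. ATRA was the lowest library at the DMSO scale in 13 of the 18, and POM the highest in 12. A member 838 bp from ADGRB3, an adhesion receptor of neurons (chromosome 6, 69389907 to 69390464), had 32 reads in ATRA, 18 in POM and 69 in ATRA+POM. It stood apart from the others by its ATRA+POM level of 97.6 at the DMSO scale. One 29.6 kb from STRIT1, which encodes the SERCA-activating micropeptide DWORF, had 32, 41 and 34, so that POM was highest there with 104 at the DMSO scale. A region inside IGF1, the insulin-like growth factor that is a survival factor of myeloma cells (chromosome 12, 102405955 to 102406501), had 26, 21 and 41. The member inside ROR1, a WNT5A receptor, had 27, 22 and 38, and that inside GFM1, a mitochondrial elongation factor, 27, 19 and 24. At IGF1 and ROR1 the ATRA library was the lowest of the 3 at the DMSO scale, as it was at GFM1. A region inside FAT2, an atypical cadherin, had 35, 23 and 29, and one inside TMEM38B, a cation channel of the endoplasmic reticulum, 32, 19 and 27. A second FRMPD4 member, inside the gene and apart from its promoter, had 28, 19 and 29. TUSC3, an oligosaccharyltransferase subunit, held a member with 35, 27 and 28 reads. At these 4 genes POM was the highest of the libraries at the DMSO scale. The member 9.34 kb from HDDC2 had 37, 30 and 33. A member with no gene within 100 kb on chromosome 12 (39103337 to 39103967) had 30, 31 and 55, and another on chromosome 18 (25831941 to 25832481) 33, 23 and 33. Of these last 3, the chromosome 12 region was the one where ATRA+POM stood well above ATRA. At the DMSO scale that region had 34.4 in ATRA, 78.3 in POM and 77.8 in ATRA+POM, so POM alone was as high. The member 4.31 kb from DYRK3 had 83, 32 and 50, or 95.1, 80.8 and 70.7 at the DMSO scale, so ATRA was the highest library there. Its ATRA background was 16.8 reads, and a DMSO peak lay 3.86 kb away.

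**Figure D4:**
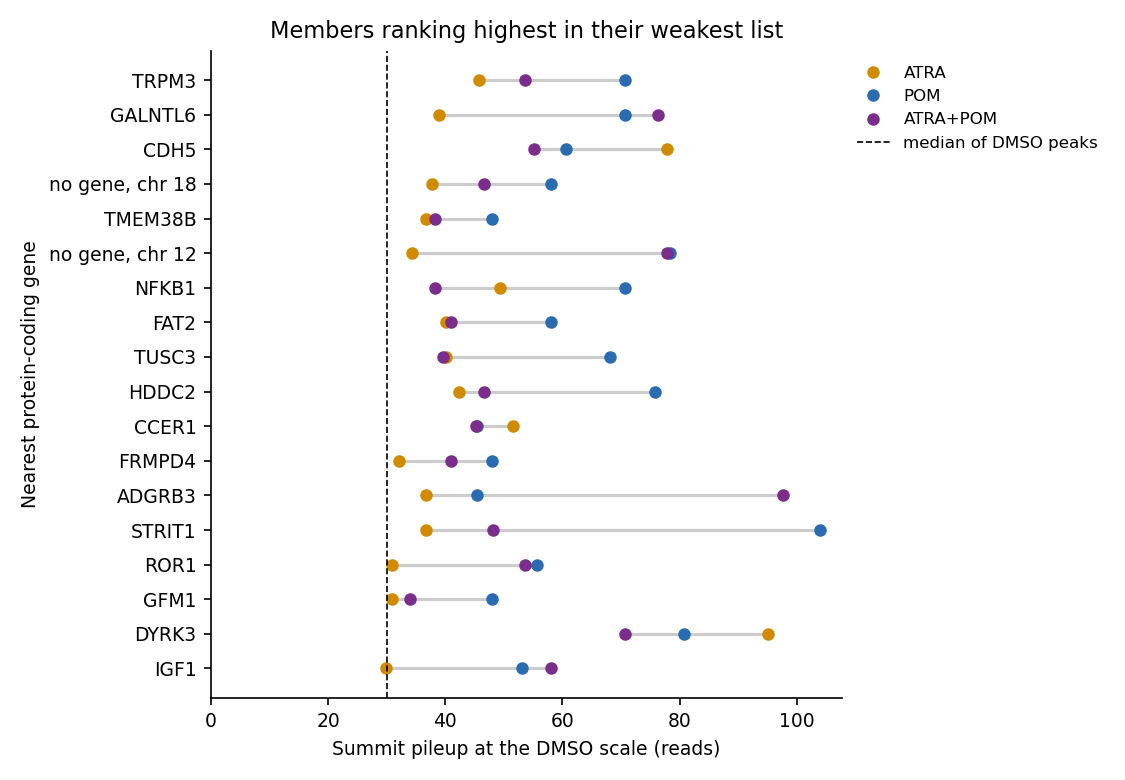
Summit pileup in reads at the DMSO scale for 18 of the 20 members that ranked highest in their weakest treated list, 1 row per member by nearest protein-coding gene, with 1 point per library and a grey line over their range. The dashed line is the median of DMSO peaks (30), and ATRA is the lowest point in 13 rows and POM the highest in 12.

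Of the members, 8 (0.424%) were strong in the ATRA list, 88 (4.66%) in POM and 93 (4.93%) in ATRA+POM. By definition, 20000 of all 76636 ATRA peaks, 69162 POM peaks and 85434 ATRA+POM peaks are strong. The 8 members strong in ATRA included the TRPM3 region and a region 51.4 kb from NFKB1, the p50 subunit of NF-kB (chromosome 4, 102449706 to 102450058), with 43 reads in ATRA, 28 in POM and 27 in ATRA+POM. One lay 41.7 kb from CDH5, the cadherin of endothelial junctions (chromosome 16, 66324723 to 66325202), with 68, 24 and 39. At CDH5 the scaled values were 77.9, 60.6 and 55.1, so ATRA was the highest library there. CCER1 held a member inside the gene with 45, 18 and 32, and RPL22L1, a ribosomal protein paralog, had one 52.8 kb away with 65, 23 and 40. A region 49.9 kb from PLA2G4A, the cytosolic phospholipase that releases arachidonic acid, had 61, 10 and 28, and one 35.1 kb from RNF187 had 86, 9 and 43. In both of these POM was the low library, with 25.3 and 22.7 at the DMSO scale against 69.9 and 98.5 in ATRA.

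Members with a pileup of 20 or more in ATRA and in ATRA+POM numbered 239, and ATRA+POM was higher at the DMSO scale in 203 of them. The ratio was 2 or more in 35. It was highest at a region inside ARFGEF1, a guanine nucleotide exchange factor of the Golgi, with 51 reads in ATRA, 117 in POM and 208 in ATRA+POM (ratio 5.03). The local background there was high in each library, at 15.4, 8.22 and 17.4 reads, where the lowest background was 2.36, 0.550 and 1.51. A region with no gene within 100 kb on chromosome 5 (67493642 to 67494309) had 26, 44 and 78 reads (ratio 3.70). Its background was 2.36, 1.45 and 3.48 reads, so it was above the lowest of the library in POM and ATRA+POM. The regions inside SMYD2, a lysine methyltransferase (25, 36 and 70 reads), and 3.72 kb from WDR31 (34, 30 and 92) had ratios of 3.46 and 3.34. One on chromosome 13 (22356984 to 22357605) had 21, 26 and 51 and a ratio of 3. In the opposite direction, the lowest ratios were 0.418 near C2orf72 (62, 23 and 21 reads), 0.466 inside MXD3, a MAX-binding repressor (98, 15 and 37), and 0.561 near AMPH, the synaptic protein amphiphysin (66, 31 and 30). PLA2G4A (0.567) and RNF187 (0.617) completed the lowest 5. At MXD3 the ATRA background was 28.0 reads and a DMSO peak lay 866 bp away. High ATRA pileups went with such surroundings in general. Of 35 members with an ATRA pileup of 40 or more, 28 had a DMSO peak within 5 kb and 30 had an ATRA background over 2 times the lowest. Over all members these shares were 19.4% and 8.11%. Such an ATRA background was also found at 52.5% of regions in all 4 lists, so it is not particular to the members.

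The distance to the nearest DMSO peak was 16633 bp at the median, and 65 members (3.44%) had one within 1 kb and 366 (19.4%) within 5 kb. Members within 5 kb of a DMSO peak had a median ATRA pileup of 18, against 13 for the 687 at 5 to 20 kb and 13 for the 834 beyond 20 kb. The ATRA+POM to ATRA ratio was 1.39, 1.54 and 1.65 in these classes, so it exceeded 1 in each. The merged members were 598 bp wide at the median, and 1862 (98.7%) held a single peak from each list. In 1793 (95%) the 3 treated peaks shared at least 1 bp, and the summits spread over 111 bp at the median (61 bp with treated peaks of a −log10 q-value of 5 or more), against 76.0 bp in regions of all 4 lists.

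Members were seldom at gene boundaries, while 676 (35.8%) lay inside a gene body, against 47.1% of regions in all 4 lists and 45.2% of all merged regions. A protein-coding gene boundary lay within 1 kb of 38 members (2.01%, 1.47 to 2.75%), against 22.1% (21.7 to 22.5%) of regions in all 4 lists and 10.1% of all merged regions. The members' share was 8.81% when absence was defined as no DMSO summit within 250 bp. No protein-coding gene lay within 100 kb of 647 members (34.3%, 32.2 to 36.5%), against 14.6% of regions in all lists and 20.5% of all merged regions. Regions called only in POM and ATRA+POM had 1.69% (1.42 to 2%) at a boundary and 35.9% (34.8 to 37.0%) without a gene, and those called only in ATRA and ATRA+POM 2.11% (1.62 to 2.73%) and 28.7%. Regions missing from ATRA only had 2.35% (1.85 to 2.99%) at a boundary and 26.8% (25.2 to 28.5%) without a gene. For those missing from POM only the shares were 4.81% and 15.1%, and for those missing from ATRA+POM only 7.92% and 10%. The classes were also set side by side at an ATRA+POM pileup of 15 to 24. There 35.7% (32.5 to 39%) of members had no gene within 100 kb, against 17.4% of regions in all lists, 27.9% of those missing from ATRA only and 36.2% of those in POM and ATRA+POM only. At that height 1.69% of members were within 1 kb of a boundary, against 6.88% of regions in all lists. The share without a gene rose with distance from the nearest DMSO peak, from 18.6% (14.9 to 22.9%) of members within 5 kb to 45.9% (42.6 to 49.3%) beyond 20 kb.

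**Figure D5:**
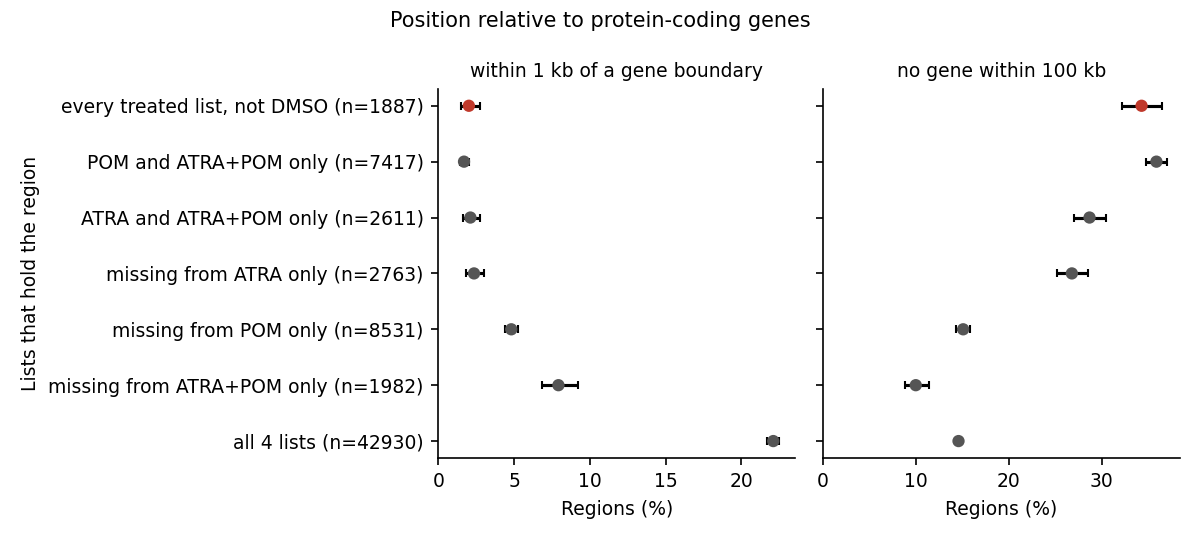
Share of regions (%) no more than 1 kb from a boundary of a protein-coding gene (left) and with no protein-coding gene within 100 kb (right), by the lists that hold the region, with 95% Wilson intervals as bars and the number of regions beside each class. The members (red) had 2.01% and 34.3%, beside 1.69% and 35.9% of regions of POM and ATRA+POM only and 22.1% and 14.6% of regions in all 4 lists.

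Chromosomes differed in how many of their merged regions were members. The share was 2.17% (90 regions) on X, 2.16% (188) on chromosome 4 and 2.11% (168) on chromosome 3. It was 0.216% (4 regions) on chromosome 22, 0.347% (13) on 19 and 0.389% (16) on 17, which are rich in genes. Regions missing from ATRA only were also less frequent on 22 (1.35%), 19 (0.801%) and 17 (1.26%) than on X (2.32%), 4 (2.24%) and 3 (2.57%). The direction is thus not particular to the members. The members were spread out, with 409 kb to the nearest other member at the median and 20 that had another within 10 kb.

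A member was nearest to, or inside, 1064 of 19974 protein-coding genes (5.33%). Long genes held more of them, as 2.16% of genes up to 20 kb, 4.04% of those of 20 to 100 kb, 11.9% of those of 100 to 300 kb and 32.8% of longer ones had a member. The gene with most was NKAIN2, which encodes a protein that interacts with a sodium pump subunit and spans 1022 kb, with 6 members of its 39 merged regions. The highest of the 6 lay inside the gene, 120 bp from a gene boundary and 400 bp before a RefSeq start site (chromosome 6, 123803692 to 123804259). It had 60, 58 and 56 reads, a background of 15.4, 6.96 and 14.1, and a DMSO peak 64 bp away. Another region inside the gene, at 124391145 to 124392031, had 10 reads in ATRA, 13 in POM and 49 in ATRA+POM. The other 4 NKAIN2 members had 11 to 15 reads in ATRA and 13 to 16 in ATRA+POM, so the region with 49 reads stood apart from them. CDH18, a cadherin of the nervous system, had 4 members, led by one inside the gene (chromosome 5, 20434896 to 20435937) with 14, 33 and 59 reads, or 16, 83.4 and 83.4 at the DMSO scale. Its other members had 15, 11 and 31, 12, 8 and 25, and 10, 6 and 14 reads. ATRA+POM thus had the most reads in each CDH18 member. CNTNAP2, a neurexin-family protein that clusters axonal potassium channels, also had 4, with 21, 19 and 30 reads at the first (chromosome 7, 147441702 to 147442203). DLG2, a postsynaptic scaffold, KCNIP4, a potassium channel subunit, ARL15, a small GTPase, and C8orf34 had 4 each, and TRPM3, HDDC2 and MALRD1 had 3 each.

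The gene lists below are read against the 5.33% of all protein-coding genes with a member. Of 25 genes of retinoid receptors and metabolism, 2 (8%) had one, and none was a RAR, RXR or CYP26 gene. They were TGM2, transglutaminase 2, a retinoid-induced gene (inside the gene, chromosome 20, 38143520 to 38144568), and NRIP1, a nuclear receptor corepressor (90.3 kb away). TGM2 had 26 reads in ATRA, 9 in POM and 20 in ATRA+POM, or 29.8 (19.5 to 43.6), 22.7 (10.4 to 43.2) and 28.3 (17.3 to 43.7) at the DMSO scale. The libraries were indistinguishable there within counting error. NRIP1 had 12, 7 and 10 reads, near the calling limit of each list. None of 15 genes of pomalidomide targets and the cereblon ligase, IKZF1, IKZF3 and CRBN included, had a member, and the same held for 24 interferon-stimulated genes and for the 3 t(4;14) genes NSD2, FGFR3 and LETM1. Of 22 plasma cell regulators 1 (4.55%) did, BCL6, the germinal centre repressor, with 10, 6 and 16 reads 32.0 kb away. Among 16 AP-1 family genes 1 did (6.25%), MAF, a factor that other myelomas carry translocated, with 12, 10 and 17 reads inside the gene. Among 20 NF-kB genes NFKB1 alone did (5%).

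Adhesion genes of neurons, a list chosen because earlier results of these data named members there, had a member at 12 of 31 (38.7%) with 22 members in all, and cadherins at 7 of 23 (30.4%) with 11. Neither share is independent evidence, and the median gene of these lists is long, at 788 kb and 140 kb. The neuronal genes included CNTN6, a contactin (19, 15 and 39 reads), TENM3, a teneurin (20, 15 and 31), and NLGN1, a neuroligin (18, 15 and 20). In each of these, ATRA+POM exceeded ATRA at the DMSO scale. Among cadherins, CDH10 had 28, 13 and 27 reads and CDH7 14, 10 and 13. Of 17 phospholipase and eicosanoid genes 2 had a member (11.8%), PLA2G4A with 2 members and ALOX5AP, the 5-lipoxygenase-activating protein, with 11, 7 and 15 reads. TRP channels had 2 of 21 (9.52%), TRPM3 among them, and endothelial genes had CDH5 alone of 13 (7.69%). The phospholipase and eicosanoid, TRP channel and endothelial lists were also chosen because earlier results of these data named members there. Their shares are therefore not independent evidence either.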

How the data were processed

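ATAC-seq peaks of OPM-2 cells were analysed, with 1 library in each of 4 groups taken from the treatment label. Per the labels' protocols, Tn5 tagged the nuclei's DNA, which an Illumina instrument sequenced. Per the submitters' processing notes, coordinates are hg38. Not given in the sources used here are the aligner, the peak caller and its settings, and whether reads were shifted for Tn5. The authors deposited, per library, a peak score, a fold, a −log10 p-value, a −log10 q-value and how far the summit lies from the start of the peak. The fold was taken as a ratio of summit pileup to background with 1 added to each, an assumption about the caller. The score is 10 times the −log10 q-value, judged from the values deposited.

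Outside chromosomes 1 to 22 and X lay 5 peaks, which were dropped. Peaks overlapping by 1 bp or more were merged, and bedtools 2.31.1 gave the same 122632 regions. Summit pileup and background were recovered by solving fold and p-value under a Poisson tail, an assumption about the caller under which every peak used came within 0.01 of its deposited −log10 p-value. Where more than 1 pileup solved both, the best was taken. Depth was estimated as the lowest recovered background of a list divided by its smallest peak width, without read totals. That width was 234 bp in DMSO, 248 bp in ATRA, 162 bp in POM and 238 bp in ATRA+POM. Intervals are 95% Wilson (shares) or exact Poisson (pileups), cover counting error only, and treat regions of 1 library as independent, which they are not. The 20000 highest −log10 q-values of a list were called strong.

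Genes (19974 protein-coding, without strand or exons) and promoters came from RefSeq tables of GRCh38.p14. With no genome used here, motifs planned for windows around summits were counted in promoter windows instead. The named regions were those strong in every treated list, the 20 ranking highest in their weakest list, the 5 highest and lowest ATRA+POM to ATRA ratios (pileup 20 or more in both), the 10 genes with most members and up to 5 members per gene list. The promoter members, the NF-kB motif and the 8 members strong in ATRA were singled out after their values were seen. Some regions that these rules name are not reported here. Members and lists were chosen with earlier results of these data known. Code was tested on simulated data, where 200 of 200 planted members were found. Python 3.11.15, numpy 2.4.6, pandas 2.3.3, scipy 1.17.1 and matplotlib 3.10.9 were used.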

Additional observations from a re-analysis of the deposited data

How the results depend on the processing

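Of 74 values under 11 alternatives, 40 stayed within their interval or 1.5 times, 34 moved and 0 reversed. Only the pileup ratios between libraries could be counted as reversed. Absence of a DMSO summit within 250 bp moved the share at a boundary to 8.81%, the share without a gene to 27.8%, the width to 680 bp, the share reaching the DMSO median to 21.0% and the ATRA+POM to ATRA and POM to ATRA ratios to 1.37 and 1.26. Requiring the treated peaks to share 1 bp gave a width of 583 bp and a summit spread of 102 bp. With a −log10 q-value of at least 3 in treated peaks, width was 577 bp, spread 87.0 bp and the share reaching the DMSO median 5.44%. At 5 or more, 603 members were left, 37.1% had no gene, width was 542 bp, spread 61 bp, the share reaching the median 10.1% and the ratios 1.47 and 1.52. Lists of equal length gave a width of 618 bp and a spread of 98.0 bp. With treated peaks at least 300 bp wide, 645 members were left, 1.24% lay at a boundary, 37.2% had no gene, width was 701 bp, spread 148 bp and the ratios 1.80 and 1.60. The depth scale gave ratios of 1.90 and 1.80. Leaving out the POM list, an alternative chosen after seeing the data, gave 4492 regions, 31.0% without a gene, a width of 530 bp, a spread of 74.0 bp and an ATRA+POM to ATRA ratio of 1.31. Stricter limits leave fewer regions by construction, and otherwise the cause was not tested.

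With 1 library per group no replicate was left out, and no spread between replicates is known. No paired analysis was possible because each group had 1 library. The narrower motif window was not run, since no genome was used here. The POM library had 33.6% of the DMSO depth, and its depth cannot be told apart from its treatment.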

Other observations

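Promoter windows of 25 long non-coding RNA genes also overlapped members, 24 in number. Their pileups ran from 10 to 27 in ATRA (median 14), from 5 to 20 in POM (median 10) and from 9 to 43 in ATRA+POM (median 20), close to the medians of all members. Members lay within 1 kb of 2 miRNA hairpins. The member 395 bp from MIR3679 on chromosome 2 had 10 reads in ATRA, 12 in POM and 21 in ATRA+POM, and the one 181 bp from MIR6082 on chromosome 4 had 30, 12 and 29. These reads are not scaled for depth. The local background was over 2 times the lowest of its library at 8.11% of members in ATRA, 12.1% in POM and 14.9% in ATRA+POM, against 52.5%, 57.9% and 55.5% of regions in all 4 lists.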
